A study of Mus musculus with 44 samples.

Results

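Replicate 1 was compared with replicates 2 and 3 in ChIP-seq of H3K4me1 and H3K4me2 from HPC7 cells, a mouse blood progenitor line grown in stem cell factor. The comparison holds 6 libraries of replicate 1 and 12 libraries of replicates 2 and 3, chosen by the replicate number in their labels, of 44 samples in the series. For each mark there were 3 libraries of replicate 1, 1 per construct, against 6 later libraries, 2 per construct; "later" is used below only as a short name for replicates 2 and 3, since the labels give no dates. The constructs were the retroviral vector MSCV-IRES-GFP empty, carrying wild-type Snai1, or carrying a mutant Snai1 that has 1 phenylalanine-to-alanine change and binds Lsd1 poorly. All cells, the empty-vector controls included, had been transduced, sorted for GFP after 1 week and expanded, so there was no untransduced group. Labels do not say whether a replicate number stands for a separate transduction, culture, immunoprecipitation or sequencing run, and these cannot be told apart here. The p-values and ± values (SE) below concern only these libraries. Both rest on a dispersion pooled over windows and hardly measure a window's own spread between constructs. Libraries of H3K4me1, H3K4me2 and IgG that share a construct and a number may come from the same cells, so the 2 marks are not independent samples.

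H3K4me1 is a methyl mark of enhancers and of the flanks of promoters, and H3K4me2 marks both enhancers and active promoters. Lsd1, encoded by Kdm1a, removes both marks, and Snai1 is a zinc finger repressor that recruits Lsd1 to its targets. Each deposited value is the number of reads in a window around a gene's transcription start site, 5 kb by the name of the table, so a window's count depends on the mark, on the DNA present and on the pull-down together. CPM are a window's reads per 1000000 reads in all windows of that library. A shift is the log2 ratio of replicate 1 over replicates 2 and 3.

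The 3 libraries of replicate 1 resembled each other more than the later libraries of different constructs did. Over 13338 nuclear windows with at least 50 reads in each H3K4me2 library, the SD of the log2 ratio beyond counting error was between 0.0964 and 0.149 for the 3 pairs of constructs within replicate 1. It was between 0.300 and 0.368 for the 12 pairs of constructs among the later libraries, between 0.321 and 0.386 for replicate 1 against a later library of the same construct, and between 0.0549 and 0.119 for replicate 2 against replicate 3 of the same construct. H3K4me1 gave the same order over 14641 windows, with 0.120 to 0.199 within replicate 1, 0.319 to 0.382 between constructs in the later libraries, 0.382 to 0.504 between replicate 1 and later libraries of a construct, and 0 to 0.0777 between replicates 2 and 3. Without chromosomes 2, 8, 12, 17 and 18, which are described below, the H3K4me2 values were still 0.0959 to 0.149 between constructs within replicate 1 and 0.261 to 0.353 between constructs among the later libraries. The distance between constructs therefore depended on which replicate numbers were compared.

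Depth and background also moved with the replicate number. Total counts in the windows were between 13868002 and 18199945 per H3K4me2 library of replicate 1 and between 8694515 and 10852692 per later one, and between 7082285 and 8813537 against 4042976 and 5616584 for H3K4me1. Windows on mitochondrial DNA, which carries no histones, took 0.0355% to 0.0542% of the counts in H3K4me2 libraries of replicate 1 and 0.133% to 0.232% in the later ones. In H3K4me1 they took 0.0128% to 0.0231% and 0.101% to 0.186%, and in the 2 IgG libraries, both from wild-type Snai1 cells, 0.239% in replicate 1 and 1.85% in replicate 2. The ratio of median CPM of housekeeping windows over that of olfactory and vomeronasal receptor windows, which are silent in blood cells, was 53.4 to 66.1 in replicate 1 and 29.3 to 63.5 later for H3K4me2, and 28.6 to 49.8 and 19 to 33.1 for H3K4me1. The gap was widest in mutant Snai1 cells, at 66.1 in replicate 1 against 29.3 and 30.5 for H3K4me2, whereas wild-type Snai1 cells had 56.4 in replicate 1 against 63.5 and 53.4. The part of pull-down efficiency in the shifts below was not tested, and the silent windows' own shifts are given with the gene groups.

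**Figure D1:**
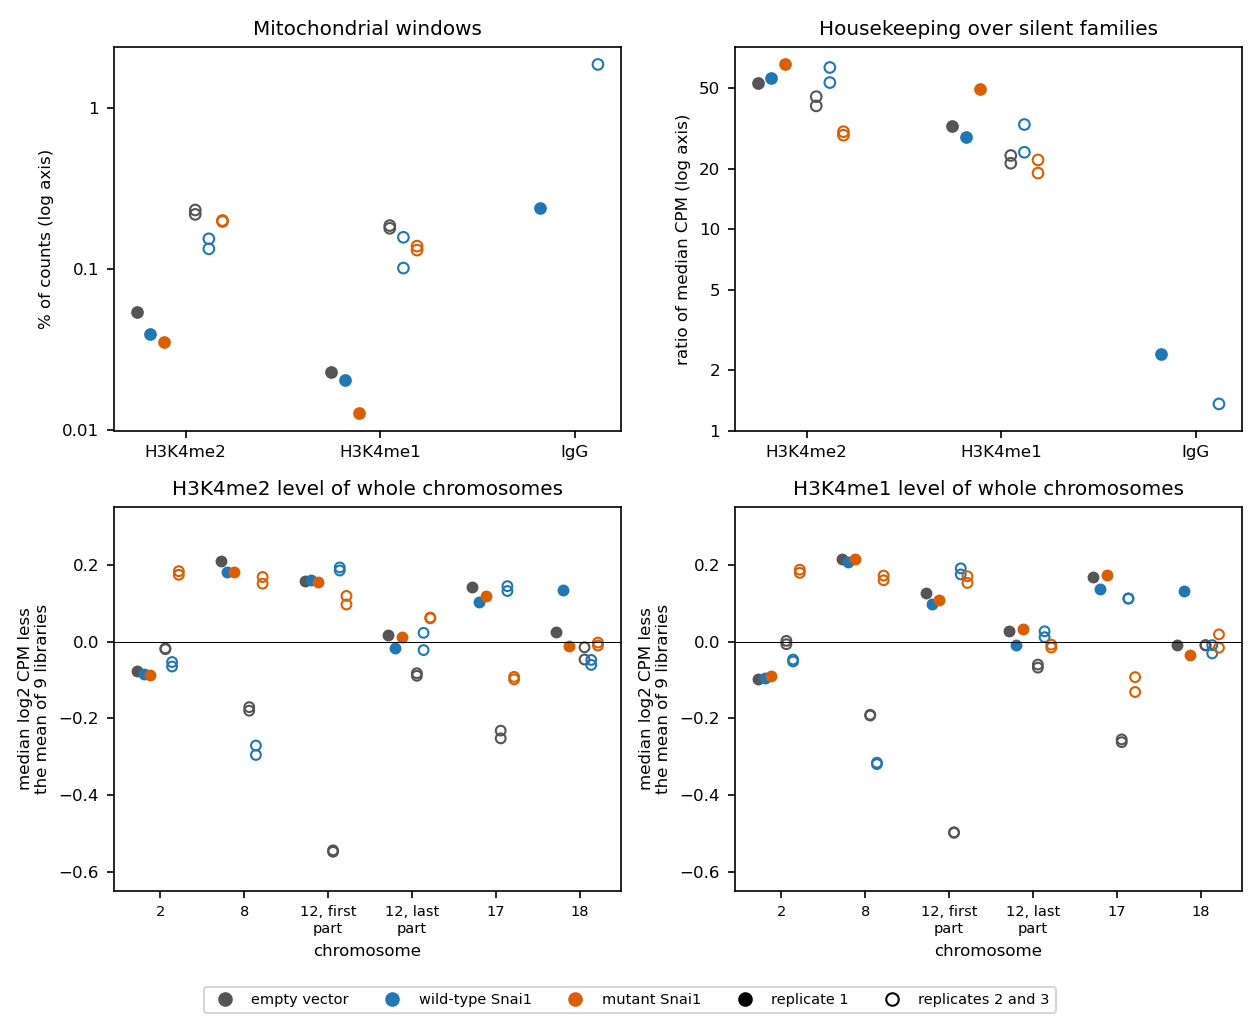
Upper panels show, for each library, the percentage of counts in mitochondrial windows and the ratio of housekeeping over silent-family CPM, both on log axes; lower panels show the median log2 CPM of chromosomes less the mean of the 9 libraries of a mark. Filled points are replicate 1 and open points replicates 2 and 3, with colour for the construct; filled points of the 3 constructs lie together on chromosomes 2, 8, 12 and 17 while open points spread by construct.

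Whole chromosomes shifted between replicate 1 and the later libraries, and which chromosomes did so depended on the construct. A chromosome's shift is the median shift over its windows less the median over all nuclear windows, and 7 of 60 chromosome and construct pairs reached 0.2 in size with the same sign in both marks. Chromosome 8 was higher in replicate 1 of empty-vector cells, by 0.39 in H3K4me2 and 0.43 in H3K4me1, and of wild-type Snai1 cells, by 0.46 and 0.52. In mutant Snai1 cells its shift was 0.13 and 0.09. Chromosome 17 was higher in replicate 1 of empty-vector cells, by 0.40 and 0.43, and of mutant Snai1 cells, by 0.30 and 0.32, but stood at -0.05 and -0.04 in wild-type Snai1 cells. Chromosome 12 was higher in empty-vector cells only among the 3 constructs, by 0.51 and 0.42, with 0.04 and 0.03 in wild-type and 0.02 and 0.00 in mutant Snai1 cells. Chromosome 18 was higher in replicate 1 of wild-type Snai1 cells by 0.22 and 0.20, and chromosome 2 was lower in replicate 1 of mutant Snai1 cells, at -0.26 and -0.31. These are descriptions of 1 library of replicate 1 and 2 later libraries per construct and mark, with no test. With at least 50 reads required in both classes, chromosome 17 in mutant cells fell to 0.18 in H3K4me2 and chromosome 18 in wild-type cells to 0.20 and 0.18, which left 5 pairs.

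**Figure D2:**
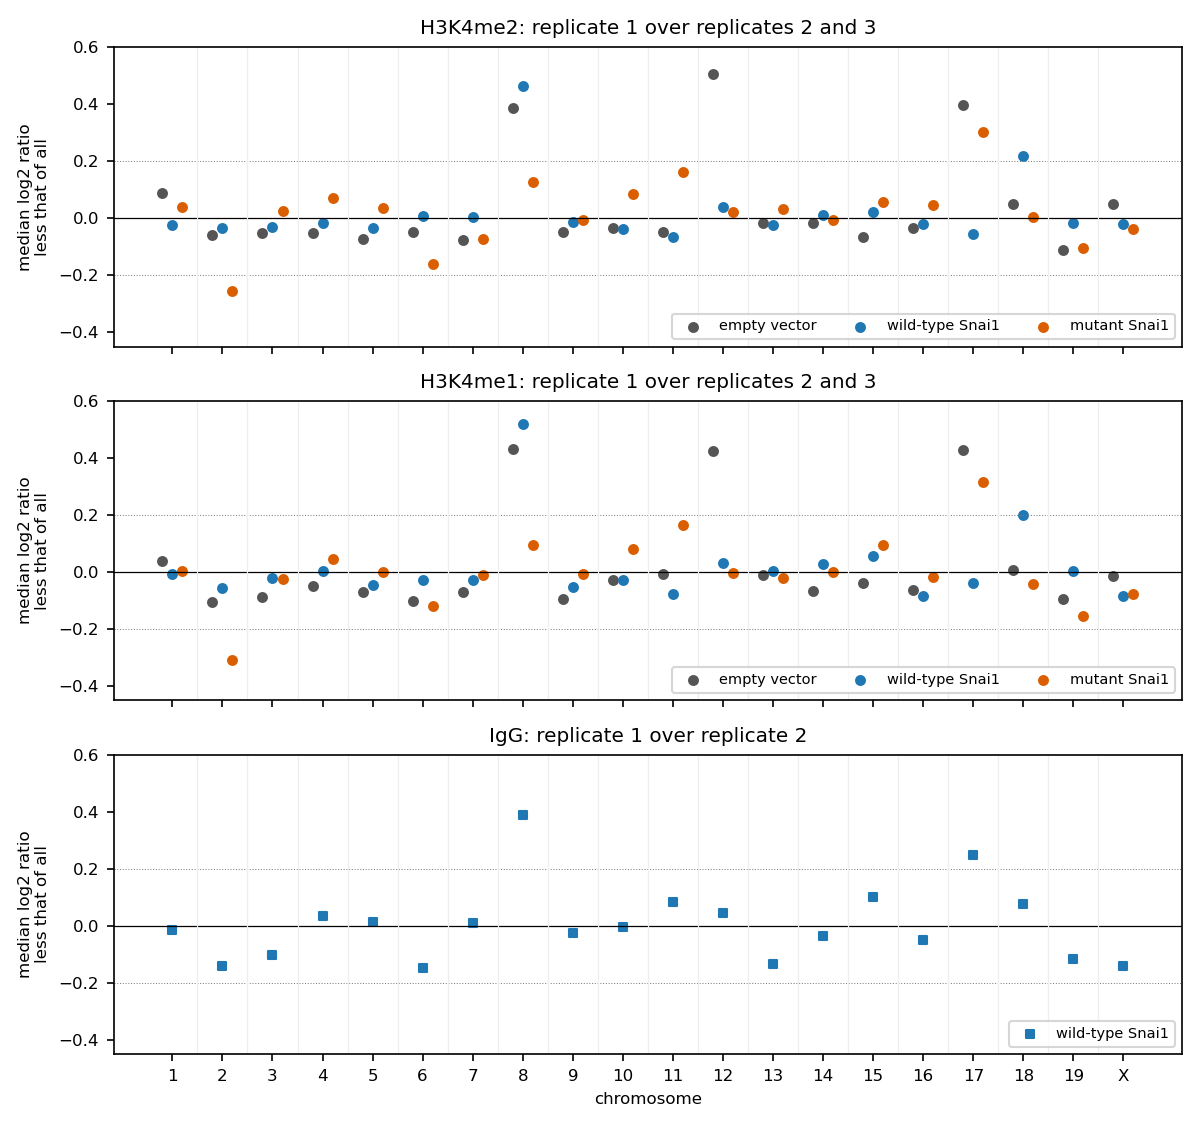
Each point is the median log2 ratio of replicate 1 over replicates 2 and 3 on 1 chromosome, less the median over all nuclear windows, for H3K4me2, H3K4me1 and, for replicate 1 over replicate 2, IgG; dotted lines are at 0.2 and -0.2. Chromosomes 8, 12 and 17 stand out in empty-vector cells, 8 and 18 in wild-type Snai1 cells, and 17 and 2 in mutant Snai1 cells, at nearly the same height in both marks.

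The level of these chromosomes in each library showed which libraries stood apart. On chromosome 8, H3K4me2 in replicate 1 lay 0.21, 0.18 and 0.18 above the mean of the 9 libraries in empty-vector, wild-type and mutant cells on the log2 scale. The later libraries lay at -0.17 and -0.18 in empty-vector cells, at -0.27 and -0.30 in wild-type cells and at 0.17 and 0.15 in mutant cells. The 3 libraries of replicate 1 and both later mutant libraries were thus high, and the later libraries of the other constructs low. On chromosome 17, H3K4me2 levels in replicate 1 were 0.14, 0.10 and 0.12, and the later libraries had -0.23 and -0.25 in empty-vector, 0.14 and 0.13 in wild-type and -0.09 and -0.10 in mutant cells. On chromosome 2 the levels in replicate 1 were -0.08, -0.08 and -0.09 and the later mutant libraries alone were above 0.1, at 0.18 and 0.17. Chromosome 18 was the exception, since there the replicate 1 library of wild-type cells, at 0.13, stood above the other 8 libraries, which lay between -0.06 and 0.02. H3K4me1 had the same libraries high and low on these chromosomes, for example 0.21, 0.21 and 0.21 in replicate 1 on chromosome 8 against -0.19 and -0.19, -0.32 and -0.32, and 0.16 and 0.17.

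The shift of chromosome 12 covered part of the chromosome. In 10 Mb steps over windows with at least 50 reads, the shift in empty-vector cells was between 0.65 and 0.75 in H3K4me2 and between 0.50 and 0.71 in H3K4me1 in the 9 steps from 0 to 90 Mb. From 90 to 120 Mb it was between -0.06 and 0.15 in H3K4me2 and between -0.04 and 0.21 in H3K4me1. In 2 Mb steps, the 6 windows between 90 and 92 Mb, of Dio2, Cep128, Gtf2a1, Ston2, Sel1l and 1 predicted gene, still had a median of 0.63 in H3K4me2 and 0.42 in H3K4me1. No window passed the minimum between 92 and 98 Mb, and the 15 windows between 98 and 100 Mb had medians of -0.16 and -0.11. Before 95 Mb, a boundary placed after these values were seen, the H3K4me2 levels of the later empty-vector libraries were -0.55 and -0.54 while the other 7 libraries lay between 0.10 and 0.19. Beyond it all 9 libraries lay between -0.09 and 0.06. Positions are gene starts of the RefSeq annotation of GRCm38.p6.

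Chromosome 8 in empty-vector and wild-type cells and 17 in empty-vector cells shifted along their whole length, while 2 in mutant cells kept its sign throughout but varied in size. All 13 steps of chromosome 8 were above 0.2 in both marks in empty-vector and wild-type cells, with a lowest of 0.27 and a highest of 0.60. All 9 steps of chromosome 17 were above 0.2 in empty-vector cells, from 0.27 to 0.53. In mutant cells only 3 of its 9 steps were above 0.2 in H3K4me2 and 6 in H3K4me1, with lowest values of -0.01 and 0.03. All 19 steps of chromosome 2 were below 0 in mutant cells, from -0.66 to -0.05, but only 13 were below -0.2 in H3K4me2 and 14 in H3K4me1. The IgG pull-down, which carries no antibody to a histone mark, shifted by 0.39 on chromosome 8 between replicate 1 and replicate 2 of wild-type Snai1 cells, beside 0.46 and 0.52 for the marks. On chromosome 18 its shift was 0.08 beside 0.22 and 0.20, and on chromosome 17 it was 0.25 beside -0.05 and -0.04. The series held no IgG library of the other constructs.

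Single windows were tested with the later libraries of each construct summed, 3 samples against 3 with construct as a block, in edgeR's quasi-likelihood framework, and p-values were adjusted over all windows (Benjamini-Hochberg, 0.05). In H3K4me2, 508 of 25943 windows were higher in replicate 1 (1.96%) and 441 lower (1.7%). In H3K4me1, 2016 of 25804 were higher (7.81%) and 1094 lower (4.24%). Either direction together gave 3.66% and 12.1% of windows; with the later libraries as separate samples the shares were 11.4% and 25%, and with DESeq2 3.61% and 8.8%. Of the 25782 windows tested in both marks, 511 passed in both and only 4 of these, Grm6, Lhx6, Sox18 and Gpr62, had opposite signs. A window shifted alike when it passed in both marks and moved the same way in all 3 constructs and both marks, which held for 431 windows (1.67%), 248 of them higher in replicate 1 (0.962%) and 183 lower (0.71%). Signs alone, with no test, were the same in all 6 for 7.5% of windows upward and 7.87% downward. Across all windows the shifts of the marks had a Pearson correlation of 0.65, and in H3K4me2 those of empty-vector and mutant cells 0.36, of empty-vector and wild-type cells 0.31, and of wild-type and mutant cells -0.06; these describe 25782 windows that share libraries and carry no p. Mutant Snai1 cells carried much of the count: without them 19 windows shifted alike, 14 of them mitochondrial, and the others included Nr3c2, which was higher, and Ncf4 and Cyp11a1, which were lower. Without empty-vector cells the count was 50, without wild-type Snai1 cells it was 688, and without replicate 3 it was 263.

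**Figure D3:**
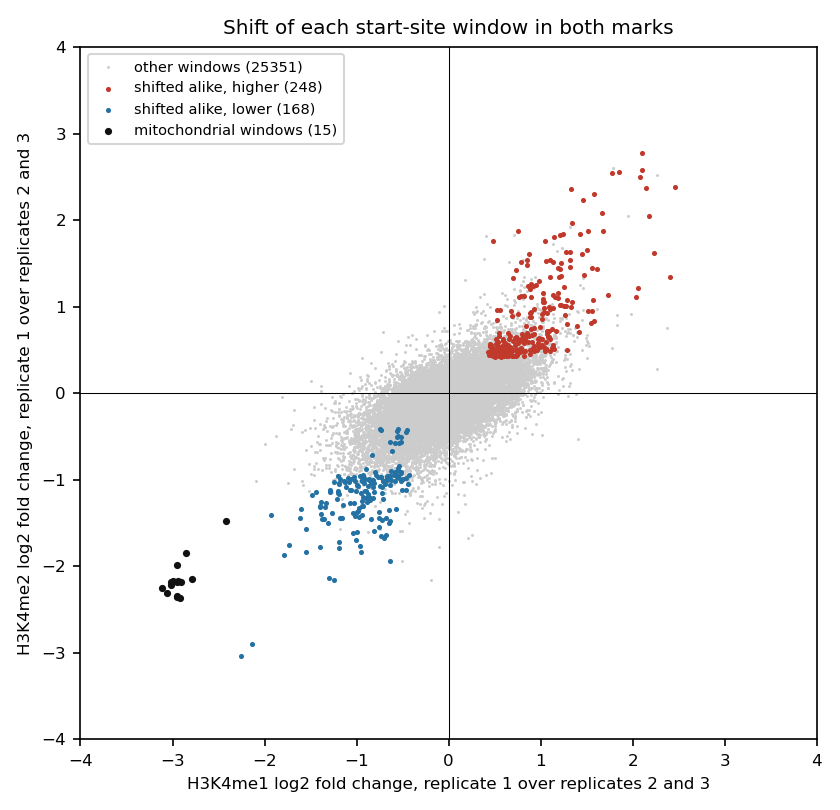
Each point is 1 start-site window, with its H3K4me1 log2 fold change on the horizontal axis and its H3K4me2 log2 fold change on the vertical axis, replicate 1 over replicates 2 and 3. The 248 windows shifted alike and higher are red, 168 lower nuclear or unplaced windows blue and the 15 mitochondrial windows black, at the lower left.

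The windows shifted alike were spread unevenly over the chromosomes. Chromosome 8 held 80 of the 248 higher windows, 7.03% of its 1138 tested windows, and chromosome 17 held 23 (1.96%), chromosome 12 held 12 (1.24%) and chromosome 18 held 8 (1.36%). When each chromosome's median shift per construct and mark was taken out before the fit, 274 windows shifted alike, 118 higher and 156 lower, and the higher ones on chromosomes 8, 17, 12 and 18 numbered 5, 2, 3 and 3. The lower windows were most frequent on the mitochondrial genome, where all 15 windows were lower. These windows overlap on 1 small circular genome and amount to 1 locus.

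Higher windows had more H3K4me2 than lower ones, while in the later libraries they had less H3K4me1. The 248 higher windows had a median of 61.5 CPM of H3K4me2 in replicate 1 and 41.5 later, and median log2 fold changes of 0.65 in H3K4me2 and 0.89 in H3K4me1. The 183 lower windows had medians of 7.40 and 17.2 CPM and fold changes of -1.14 and -0.93. In H3K4me1 the higher windows had medians of 59.7 CPM in replicate 1 and 33.7 CPM later, and the lower ones 31.1 and 63.6 CPM. In IgG from wild-type cells, 202 of 236 higher nuclear windows with at least 50 IgG reads had more IgG in replicate 1 (85.6%), against 68 of 140 lower windows (48.6%) and 12033 of 24037 of all windows (50.1%). Away from chromosomes 2, 8, 12, 17 and 18 the higher windows still gave 83 of 107 (77.6%), and all windows gave 47.4%. The fifth of windows with most H3K4me2 gave 72.3% there and 75.6% over all nuclear windows. The part of IgG background in these shifts was not tested.

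Promoter sequence was read from RefSeq for 16206 of the 20243 protein-coding windows tested. It was the 300 bases from 250 before to 50 after a start listed for the gene, not always the gene's outer end. Windows with up to 5 CG dinucleotides in those bases had median shifts of -0.17 in H3K4me2 and -0.18 in H3K4me1, and windows with over 25 had 0.04 and 0.04. The constructs did not share this pattern, since the CG-poor windows stood at -0.56 in H3K4me2 of mutant Snai1 cells and at 0.11 in wild-type cells. Windows shifted alike and lower made up 0.923% of the CG-poor windows and 0.218% of the CG-rich ones, and those shifted alike and higher 0.418% and 1.41%. Only 76.8% of the higher and 68.4% of the lower coding windows had a promoter in the table, under the 80% at which such a check was held to be usable, so the check is void for these sets themselves.

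The promoters of 4 genes are printed as examples of differing CG counts, with every CG dinucleotide in capitals, 5′ to 3′ on the gene's strand, from RefSeq on GRCm38.p6. They were picked from the windows named below with their shifts known, so they are no evidence on the sets above. Nr3c2 lies at chr8:76902080-76902379 on the plus strand and Klf4 at chr4:55532426-55532725 on the minus strand, and both windows were higher in replicate 1. Slc7a11 lies at chr3:50443564-50443863 on the minus strand and Mpeg1 at chr19:12460520-12460819 on the plus strand, and both windows were lower. The stretches of Nr3c2 and Slc7a11 lie inside their genes, which span chr8:76898083-77245012 and chr3:50364936-50499087. Coordinates of the counted windows were not given, so these stretches may lie outside them.
Nr3c2: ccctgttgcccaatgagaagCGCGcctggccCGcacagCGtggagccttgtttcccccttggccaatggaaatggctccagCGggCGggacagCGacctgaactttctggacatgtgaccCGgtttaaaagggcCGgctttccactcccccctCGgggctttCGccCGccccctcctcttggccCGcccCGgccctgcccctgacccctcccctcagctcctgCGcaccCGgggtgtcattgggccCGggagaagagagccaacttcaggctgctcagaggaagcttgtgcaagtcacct
Klf4: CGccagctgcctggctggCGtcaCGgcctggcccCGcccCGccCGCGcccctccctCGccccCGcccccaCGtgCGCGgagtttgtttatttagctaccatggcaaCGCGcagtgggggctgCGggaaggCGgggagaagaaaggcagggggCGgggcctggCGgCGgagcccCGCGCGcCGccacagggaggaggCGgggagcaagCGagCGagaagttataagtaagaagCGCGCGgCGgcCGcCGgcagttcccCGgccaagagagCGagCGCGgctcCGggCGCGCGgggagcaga
Slc7a11: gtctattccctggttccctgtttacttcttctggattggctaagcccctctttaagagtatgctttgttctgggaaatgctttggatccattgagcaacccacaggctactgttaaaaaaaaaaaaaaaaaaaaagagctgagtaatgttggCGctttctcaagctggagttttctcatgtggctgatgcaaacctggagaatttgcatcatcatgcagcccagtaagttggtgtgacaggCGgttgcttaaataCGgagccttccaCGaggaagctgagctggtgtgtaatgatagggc
Mpeg1: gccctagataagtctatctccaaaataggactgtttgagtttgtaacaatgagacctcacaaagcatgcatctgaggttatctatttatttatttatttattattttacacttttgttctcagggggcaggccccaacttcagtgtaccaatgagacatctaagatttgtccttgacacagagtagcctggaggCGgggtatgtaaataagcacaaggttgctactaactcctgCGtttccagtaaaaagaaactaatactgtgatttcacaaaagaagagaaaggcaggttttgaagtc
The sequences hold 17 CG dinucleotides in Nr3c2, 40 in Klf4, 4 in Slc7a11 and 2 in Mpeg1. Of 22244 promoters of the same length, 42.2% hold as many as Nr3c2 or more and 5.11% as many as Klf4 or more, while 28.3% hold as few as Slc7a11 or fewer and 17.7% as few as Mpeg1 or fewer. The counts describe these letters and do not show what sets the marks.

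The windows named next were the 12 in each direction with the largest shifts in the weaker mark, among windows shifted alike whose 3 libraries of replicate 1 lay outside the range of the 6 later libraries in both marks. Non-overlap in them follows from that choice; over all tested windows it held for 7.24% higher and 7.3% lower in H3K4me2 and for 12.7% and 9.85% in H3K4me1.

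Among the 12 higher windows, that of Nr3c2, the mineralocorticoid receptor, on chromosome 8, had 36.7, 34.5 and 36.9 CPM of H3K4me2 in replicate 1 of empty-vector, wild-type and mutant cells, against a lowest of 2.35, a median of 4.81 and a highest of 18.4 CPM later. The high later values were both from mutant cells, 18.4 and 15.1 CPM, and the other 4 later libraries stayed at or below 5.59 CPM. Its fold change was 2.57 ± 0.27 (SE, log2) in H3K4me2 (adjusted p = 3.0e-16) and 2.10 ± 0.30 in H3K4me1 (adjusted p = 3.9e-10), well beyond the shift of its chromosome. By construct its H3K4me2 shift was 2.9, 3.8 and 1.1 in empty-vector, wild-type and mutant cells, a spread that the SE does not measure. Hoxb7, a homeobox factor of chromosome 11, had 17.4, 14.9 and 19.8 CPM of H3K4me2 in replicate 1 and between 2.55 and 3.50 CPM later, with a median of 2.83. All 6 later libraries were alike here whatever the construct, and the fold change was 2.56 ± 0.30 in H3K4me2 (adjusted p = 3.2e-14) and 1.86 ± 0.26 in H3K4me1 (adjusted p = 3.4e-10). Klf4, a zinc finger factor of differentiation and pluripotency on chromosome 4, had 9.76, 12.6 and 12.6 CPM of H3K4me2 in replicate 1 and a lowest of 1.63, a median of 2.92 and a highest of 3.27 CPM later. Its later values were near the median of silent receptor windows, 2.10 CPM, and its fold change was 2.08 ± 0.31 in H3K4me2 and 1.67 ± 0.36 in H3K4me1. Tead4, a DNA-binding partner of the Hippo pathway on chromosome 6, had 20.8, 21.0 and 20.9 CPM of H3K4me2 in replicate 1 and 3.27 to 6.03 CPM later, with a fold change of 2.30 ± 0.29. Npas3, a basic helix-loop-helix factor of chromosome 12, rose by 2.05 ± 0.29 in H3K4me2 and 2.18 ± 0.31 in H3K4me1, and Mier2, of the MIER family of histone deacetylase partners, by 2.55 ± 0.29 and 1.78 ± 0.29.

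The other higher windows held receptors, an enzyme, a hormone and a neuronal protein. Chsy3, a chondroitin sulfate synthase of chromosome 18, had 28.3, 40.1 and 31.7 CPM of H3K4me2 in replicate 1 and 2.69 to 8.48 CPM later, and its 2.78 ± 0.27 was the largest H3K4me2 rise among the 12. Sncaip, which encodes the synuclein partner synphilin and lies on chromosome 18, had 25.8, 16.8 and 25.3 CPM in replicate 1 and 2.69 to 6.63 CPM later in H3K4me2, with a fold change of 2.38 ± 0.29 and, in H3K4me1, 2.46 ± 0.29. Stc1, the hormone stanniocalcin, on chromosome 14, was the strongest of these windows, with 63.3, 47.2 and 76.9 CPM of H3K4me2 in replicate 1 and 9.52 to 27.7 CPM later. Later libraries ran low in empty-vector, intermediate in wild-type and high in mutant cells, as 9.52 and 10.7, 16.04 and 16.39, and 27.0 and 27.7 CPM. Its fold change was 1.87 ± 0.17 in H3K4me2 and 1.68 ± 0.16 in H3K4me1 (adjusted p = 3.5e-26 and 6.8e-22). Robo2, a receptor for Slit guidance proteins, rose by 2.38 ± 0.30 and 2.15 ± 0.28. Adgrb2, an adhesion G protein-coupled receptor, rose by 1.66 ± 0.31 and 1.51 ± 0.30. The window of the microRNA gene Mir3081 overlaps that of Boc, a Hedgehog co-receptor, on chromosome 16, and these rose by 1.87 ± 0.34 and 1.54 in H3K4me2 as 1 locus.

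Among the 12 lower windows were Mpeg1, Cd300a and Aoah, which act in leukocytes, and the transporters Slc7a11 and Slc22a12. Slc7a11, the cystine and glutamate exchanger, on chromosome 3, had the largest nuclear fall of the 12. It had 3.25, 8.33 and 2.33 CPM of H3K4me2 in replicate 1 and a lowest of 29.2, a median of 33.9 and a highest of 40.6 CPM later. The 6 later libraries agreed across constructs and the wild-type library was the highest of replicate 1, also in H3K4me1, where replicate 1 had 10.1, 34.4 and 6.58 CPM and the later libraries 53.8 to 82.7 CPM. Its fold change was -3.04 ± 0.27 in H3K4me2 (adjusted p = 1.0e-25) and -2.25 ± 0.21 in H3K4me1 (adjusted p = 2.0e-11). Mpeg1, a pore-forming protein of macrophages, on chromosome 19, had 3.91, 8.67 and 4.60 CPM of H3K4me2 in replicate 1 and 15.8 to 22.2 CPM later, and its fold change was -1.75 ± 0.29, with -1.74 ± 0.20 in H3K4me1. Cd300a, an inhibitory receptor of leukocytes on chromosome 11, had 16.2, 15.9 and 12.3 CPM of H3K4me2 in replicate 1 and a lowest of 46.4, a median of 68.2 and a highest of 87.0 CPM later. The groups lay far apart, with fold changes of -2.14 ± 0.17 and -1.30 ± 0.18. Aoah, an enzyme that inactivates bacterial lipopolysaccharide, on chromosome 13, had 3.11, 3.42 and 2.74 CPM of H3K4me2 in replicate 1 and 3.88 to 12.8 CPM later. Later wild-type libraries, at 4.04 and 3.88 CPM, were close to replicate 1 and the other 4 were at 11.2 to 12.8 CPM.

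The other lower windows held varied genes. Cyp11a1, the first enzyme of steroid synthesis, on chromosome 9, had 9.19, 13.8 and 8.68 CPM of H3K4me2 in replicate 1 and a lowest of 24.6, a median of 49.8 and a highest of 78.0 CPM later. The later wild-type libraries were highest, at 78.0 and 76.1 CPM, and the mutant ones lowest, at 25.4 and 24.6 CPM, and the fold change was -2.16 ± 0.20 in H3K4me2 and -1.24 ± 0.16 in H3K4me1. Ly6e, a lipid-anchored surface protein, fell by 1.84 ± 0.29 and 1.55 ± 0.17 on the log2 scale, and Slc22a12, a urate transporter, by 1.27 ± 0.30 and 1.33 ± 0.16. Cldn13, a claudin, had a later median of 6.37 CPM of H3K4me2 with both mutant libraries highest, at 14.1 and 13.5 CPM, and fell by 1.32 ± 0.33 and 1.34 ± 0.29. Lrrc26, an auxiliary subunit of potassium channels, fell by 1.30 ± 0.32 and 1.40 ± 0.16, with the neighbouring windows of Tmem210, Grin1os and Grin1 also shifted alike and lower. Jade3, a scaffold of a histone acetyltransferase complex, on the X chromosome, had 1.45, 1.08 and 1.28 CPM of H3K4me2 in replicate 1, below the 1.64 CPM of silent windows, and 3.58 to 6.26 CPM later. ND4L stands for the mitochondrial windows, with 9.33, 6.90 and 6.70 CPM in H3K4me2 of replicate 1 and 29.7 to 51.5 CPM later, a fold change of -2.37 ± 0.24, and IgG at -3.21.

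**Figure D4:**
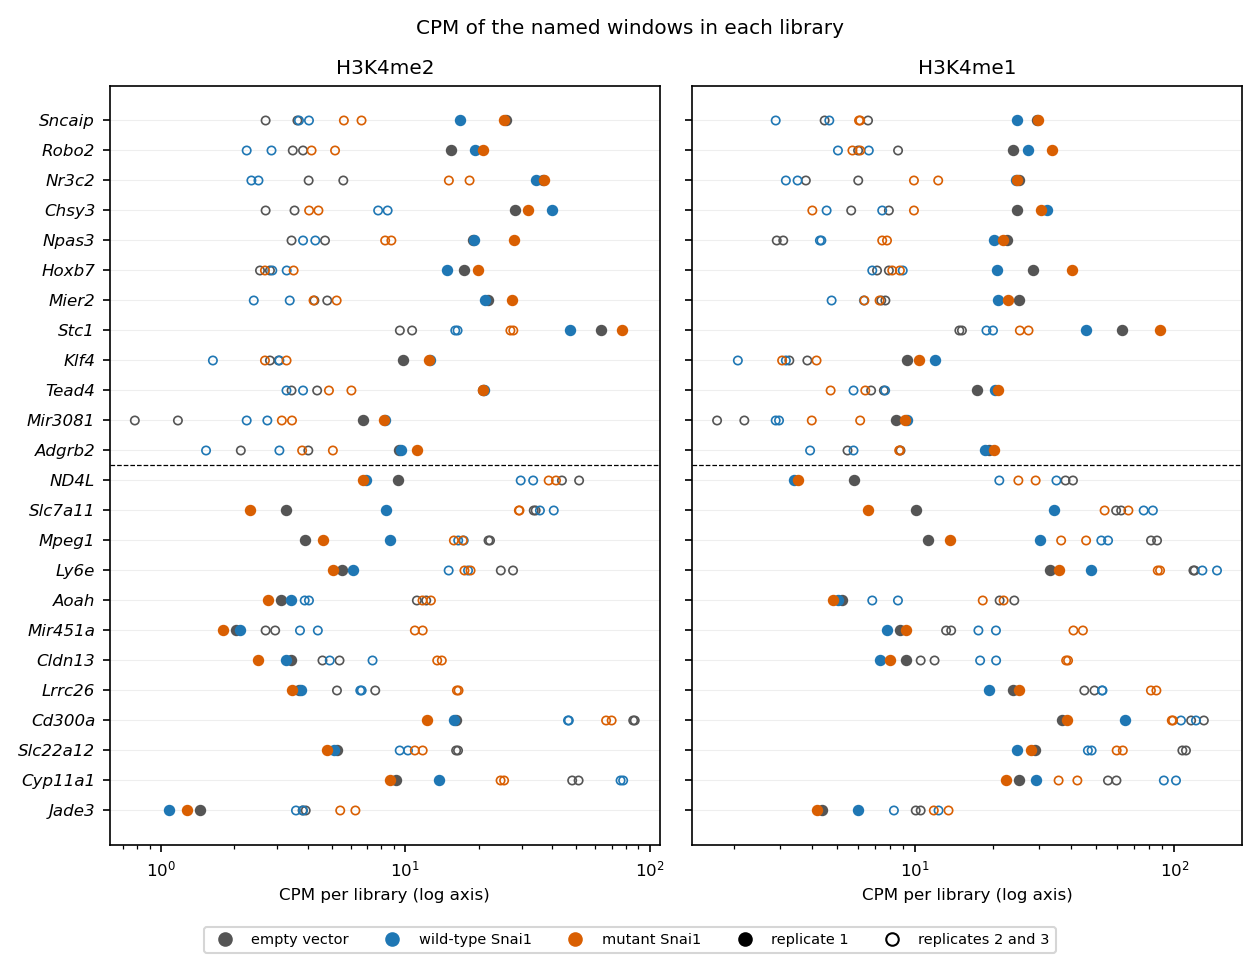
CPM of the 24 named windows in each library on a log axis, H3K4me2 left and H3K4me1 right, with the 12 higher windows above the dashed line and the 12 lower ones below. Filled points are replicate 1 and open points replicates 2 and 3, coloured by construct; filled points of the 3 constructs mostly sit close together, and open points of some windows, such as Nr3c2, Stc1 and Cyp11a1, split by construct.

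MicroRNA loci are shown by their mature sequences, because microRNA genes were among the windows shifted alike in both directions and pairs of them share a start-site region. Seeds, bases 2 to 8, are in capitals and sequences are from RefSeq on GRCm38.p6.
miR-132-3p: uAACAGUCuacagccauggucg
miR-212-3p: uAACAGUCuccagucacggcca
miR-144-3p: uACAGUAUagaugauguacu
miR-451a: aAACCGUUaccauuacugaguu
Mir132 and Mir212, neighbours on chromosome 11 whose 3p products have the same seed and which are known as targets of CREB, were higher in replicate 1. Mir212 had 50.1, 46.5 and 50.3 CPM of H3K4me2 in replicate 1 and 26.8 to 34.9 CPM later, and its fold change was 0.62 ± 0.16 in H3K4me2 and 1.10 ± 0.18 in H3K4me1 (adjusted p = 0.0053 and 7.2e-08). Mir132 rose by 0.49 ± 0.14 and 1.10 ± 0.17. Mir144 and Mir451a, a red cell cluster of chromosome 11, were lower. Mir451a had 2.02, 2.11 and 1.80 CPM of H3K4me2 in replicate 1 and 2.69 to 11.8 CPM later, with the mutant libraries highest, and fell by 1.40 ± 0.37 in H3K4me2 and 1.39 ± 0.28 in H3K4me1 (adjusted p = 0.0090 and 4.1e-05). Of 609 microRNA windows tested in both marks, 6 were shifted alike and higher and 6 lower, beside 0.962% and 0.71% over all windows, and some of these share a region as above. Mir574 was also higher, with 24.3, 27.7 and 27.3 CPM of H3K4me2 in replicate 1, although the later wild-type libraries, at 24.2 and 19.4 CPM, were close to these while the later empty-vector libraries had 1.96 and 2.35 CPM. Mir190b was also lower, by 1.27 ± 0.35 and 1.07 ± 0.29.

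Markers of the line were checked before gene groups. Of 8 genes of blood progenitors, 6 (Gata2, Tal1, Lyl1, Runx1, Fli1 and Kit) had at least 98.7 CPM of H3K4me2 in every library. Lmo2 had 11.3 to 12.8 CPM in replicate 1 and 18.02 to 66.8 CPM later, and Erg stood at 2.19 to 4.97 CPM, close to silent windows. Kit, the receptor for stem cell factor, had 149 to 176 CPM, and Tal1 192 to 278 CPM. Lmo2, a bridging factor of the progenitor complex, fell by 1.28 in H3K4me2 (adjusted p = 8.5e-06), with H3K4me1 at -0.31 (adjusted p = 0.31). Lymphoid, epithelial and stromal markers were low, with Cd3e at 4.3 to 6.5 CPM, Pax5 at 2.5 to 4.7 CPM and Cdh1 at 2.2 to 6.1 CPM of H3K4me2. Markers of mast, myeloid and red cells were uneven. Erythroid Klf1 had 67.0 to 97.7 CPM and Slc4a1 3.43 to 6.20 CPM, myeloid Csf1r 25.6 to 50.6 CPM and Ly6c2 2.04 to 6.98 CPM. Mast cell Cpa3 had 34.0 to 184 CPM, while Fcer1a had 3.50 to 6.38 CPM and Mcpt4 1.33 to 3.04 CPM.

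Growth factor signalling genes gained H3K4me1 in replicate 1. Of 30 genes of immediate early and cytokine signalling, 17 rose in H3K4me1, beside 7.81% higher among all windows, and 29 had a positive fold change, with a median of 0.63 against -0.01 for all windows. In H3K4me2, 4 rose, beside 1.96% higher among all windows, and the median was 0.23. Those shifted alike in both marks were Spry1, an inhibitor of receptor tyrosine kinase signalling, and the immediate early genes Ier2 and Ier3. Spry1 had 43.5, 38.5 and 47.7 CPM of H3K4me2 in replicate 1 and a lowest of 7.09, a median of 13.4 and a highest of 32.1 CPM later, with fold changes of 1.62 ± 0.21 and 1.32 ± 0.16 (adjusted p = 3.3e-10 and 2.8e-14). Its later levels were lowest in mutant and highest in wild-type cells. Ier3 rose by 0.62 ± 0.14 and 0.81 ± 0.16, on chromosome 17, and Ier2 by 0.64 ± 0.16 and 0.75 ± 0.16, on chromosome 8. The list's median in H3K4me1 was 0.61, 0.32 and 0.78 in empty-vector, wild-type and mutant cells. Without the empty-vector libraries 1 gene passed there, beside 487 of 25816 among all windows, and the list's median was 0.67. The list's median IgG shift was 0.51 against 0.00 for all windows, and its part was not tested.

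Progenitor factors moved in the same direction. Of 30 genes, 13 rose in H3K4me1, beside 7.81% higher among all windows, with 28 positive and a median of 0.48. In H3K4me2 4 rose and 2 fell, beside 1.96% higher and 1.7% lower, with a median of 0.23. Mycn, a Myc family factor on chromosome 12, rose by 0.60 ± 0.15 and 0.80 ± 0.15, and Lyl1, a partner of Lmo2 on chromosome 8, by 0.55 ± 0.16 and 0.98 ± 0.23. Gata2, a zinc finger factor of stem cells, rose in H3K4me1 by 1.05 (adjusted p = 0.00017) with 0.43 in H3K4me2 (adjusted p = 0.15); its H3K4me1 shift was 0.78, 0.37 and 2.02 in empty-vector, wild-type and mutant cells. Without the empty-vector libraries 2 of the list rose in H3K4me1, beside 309 of 25816 among all windows. Without the mutant ones 6 rose, beside 930 of 25832.

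Histone genes and Hox genes passed more often in H3K4me1, as did all windows, at 12.1% against 3.66%. No window of either list was among the 7 that differed between marks, given below. Of 64 histone gene windows, 21 rose in H3K4me1, beside 7.81% higher among all windows, with 61 positive and a median of 0.39. In H3K4me2, 0 passed edgeR's test after adjustment and 0 passed DESeq2, beside 3.66% and 3.61% of all windows. By edgeR's test 13 had an unadjusted p under 0.05, beside 3374 of 25943 among all windows. In that mark 15 were positive and the median was -0.12. By construct the H3K4me1 median was 0.61, 0.08 and 0.46. Without empty-vector libraries 1 window passed in that mark, beside 487 of 25816 among all windows. Scaled to the silent receptor windows, the H3K4me2 median was 0.17, so its sign depended on the scaling. H1f10, a variant linker histone, rose by 0.84 ± 0.16 in H3K4me1, with 0.34 ± 0.14 in H3K4me2. Of 39 Hox genes, 11 rose and 1 fell in H3K4me1, beside 7.81% and 4.24% of all windows, with a median of 0.43. In H3K4me2 2 rose and 1 fell, beside 1.96% and 1.7%, and 24 were positive with a median of 0.15. Their median H3K4me2 level was 4.07 CPM in replicate 1 and 3.6 CPM later, beside 11.1 and 13.1 CPM for all windows. Hoxa11 had 19.1, 18.03 and 20.6 CPM of H3K4me2 in replicate 1 and 7.10 to 11.4 CPM later and rose by 1.07 ± 0.28 and 1.29 ± 0.21.

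Myeloid, red cell and interferon genes gave mixed results. Of 42 myeloid genes, 8 fell and 1 rose in H3K4me2, beside 1.7% lower and 1.96% higher among all windows. The H3K4me2 median was -0.13, and 0.16 when scaled to silent windows. In H3K4me1 6 rose and 3 fell, beside 7.81% higher and 4.24% lower. Ncf4, a subunit of the phagocyte oxidase, had 16.2, 16.5 and 17.2 CPM of H3K4me2 in replicate 1 and a lowest of 36.1, a median of 73.0 and a highest of 98.1 CPM later. It fell by 1.94 ± 0.16 in H3K4me2 and 0.64 ± 0.21 in H3K4me1, where mutant cells moved by -0.05. Ccr2, a chemokine receptor of monocytes, fell by 1.16 ± 0.22 and 0.72 ± 0.22, with a wild-type shift of 0.00 in H3K4me2. Klf4 was the 1 myeloid gene that rose in H3K4me2. Of 33 erythroid and megakaryocytic genes, 4 fell in H3K4me2, beside 1.7% lower among all windows, and in H3K4me1 6 rose and 3 fell, beside 7.81% and 4.24%. Ermap and Kel, blood group proteins of the red cell membrane, were shifted alike and lower, by 1.08 ± 0.28 and 1.18 ± 0.32 in H3K4me2. Of 28 interferon-stimulated genes, 3 fell and 1 rose in H3K4me2, beside 1.7% lower and 1.96% higher among all windows. Mx1, of the dynamin-like antiviral GTPase family but annotated here as a transcribed pseudogene, fell by 1.05 ± 0.28 and 1.19 ± 0.16. Zbp1, a sensor of Z-form nucleic acid, rose by 0.96 ± 0.28 and 0.53 ± 0.15.

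Silent genes and housekeeping genes show the scale of the background. The 1365 olfactory and vomeronasal receptor windows had median shifts of -0.32 in H3K4me2 and -0.47 in H3K4me1. Of them 3 and 44 passed as lower, beside 1.7% and 4.24% lower among all windows, so passing was not more frequent here. In H3K4me1, 3 passed as higher, beside 7.81% higher among all windows. The median shifts of these windows were -0.16, 0.06 and -0.82 in H3K4me2 and -0.36, -0.02 and -0.996 in H3K4me1 for empty-vector, wild-type and mutant cells. Clustered protocadherins, also silent, stood at 0.51 in wild-type and -0.48 in mutant cells in H3K4me2, and at 0.45 and -0.60 in H3K4me1. Of 26 housekeeping genes, 2 rose and 2 fell in H3K4me2, beside 1.96% higher and 1.7% lower among all windows, with a median of 0.08 in that mark. In H3K4me1, 1 rose and 4 fell, beside 7.81% and 4.24%. Gapdh, a glycolytic enzyme, rose by 0.50 ± 0.15 and 0.53 ± 0.18, and Rab7 and B2m were shifted alike and lower, by 1.01 ± 0.30 and 0.44 ± 0.14 in H3K4me2. Scaling to the silent windows moved the median of all windows to 0.28 in H3K4me2 and 0.29 in H3K4me1 and gave 533 higher against 77 lower windows in H3K4me2 and 1205 against 113 in H3K4me1, so the split between higher and lower is relative to the TMM scaling.

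**Figure D5:**
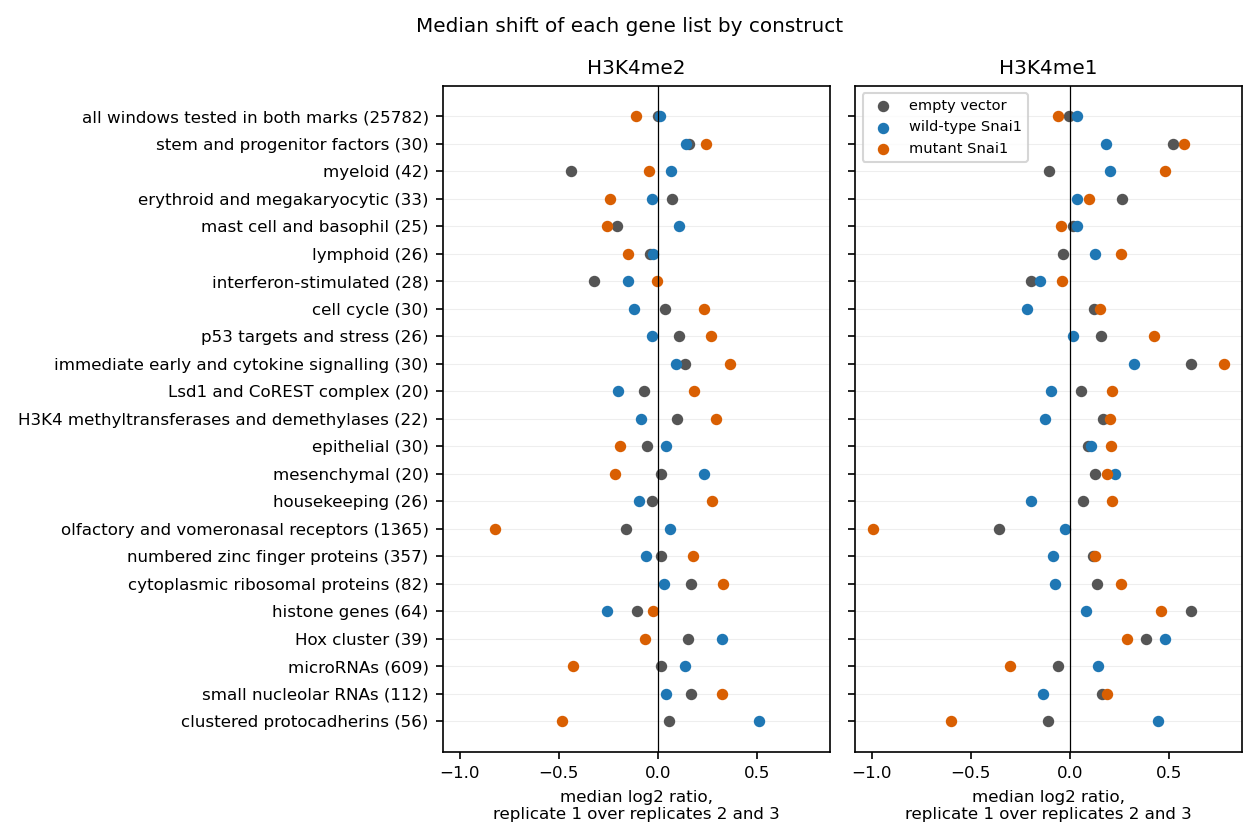
Median log2 ratio of replicate 1 over replicates 2 and 3 in each gene list, by construct, for H3K4me2 and H3K4me1, with the number of windows tested in both marks in brackets. Immediate early and progenitor genes lie right of 0 in H3K4me1 in all 3 constructs, and silent receptor windows lie farthest left in mutant Snai1 cells.

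Neither Snai1 nor Kdm1a passed in either mark. Snai1 had 26.7, 32.9 and 56.5 CPM of H3K4me2 in replicate 1 and 26.3 to 54.4 CPM later, with fold changes of 0.02 ± 0.17 (adjusted p = 0.99) and 0.36 ± 0.18 (adjusted p = 0.18). The mark at this window is no check of the constructs, which are expressed from a retrovirus. Kdm1a had 53.7, 56.3 and 64.0 CPM of H3K4me2 in replicate 1 and 64.7 to 78.9 CPM later, with -0.30 ± 0.13 (adjusted p = 0.27) and -0.20 ± 0.15 (adjusted p = 0.47). Its 3 libraries of replicate 1 lay below all 6 later ones in both marks, as held for 7.3% of windows in H3K4me2 and 9.85% in H3K4me1. In mutant cells its H3K4me2 shift was only -0.03. Of 20 genes of the Lsd1 and CoREST complex, 1 fell in H3K4me2, beside 1.7% lower among all windows, and 3 rose in H3K4me1, beside 7.81% higher. Of 22 H3K4 methyltransferases and demethylases, 0 passed in H3K4me2 with edgeR's quasi-likelihood test or with DESeq2, beside 3.66% and 3.61% of all windows. By edgeR's test 3 had an unadjusted p under 0.05 there, beside 3374 of 25943 among all windows. In H3K4me1 1 rose, beside 7.81% higher among all windows.

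The shift differed between the marks at 7 of 26001 windows by a test of the interaction of replicate class and mark (0.0269%), all with a more negative shift in H3K4me2 than in H3K4me1. Besides the predicted gene Gm13546, which neighbours Cytip, these were Hotair, Cytip, Cpa3, Tbxas1, Serpinb1a and Clec4d, looked up after their values were seen. Cpa3, a mast cell carboxypeptidase, had 34.0, 88.6 and 34.4 CPM of H3K4me2 in replicate 1 and a lowest of 81.2, a median of 102 and a highest of 184 CPM later, against 102, 94.2 and 123 CPM and 86.9 to 101 CPM of H3K4me1. Replicate 1 was therefore lower than later libraries of the same construct in H3K4me2. The H3K4me1 shift of Cpa3 was 0.21, -0.08 and 0.41 in empty-vector, wild-type and mutant cells. By the interaction test the difference between the shifts was -1.47 ± 0.22 (adjusted p = 0.021). Tbxas1, thromboxane synthase, had 15.1, 27.7 and 15.9 CPM of H3K4me2 in replicate 1 and 52.1 to 104 CPM later, with a difference of -1.44 ± 0.19 (adjusted p = 0.013). Cytip, a regulator of leukocyte adhesion, had a difference of -1.68 ± 0.24, Serpinb1a, an inhibitor of neutrophil proteases, -1.35 ± 0.20, and Clec4d, a C-type lectin of myeloid cells, -1.19 ± 0.20. Hotair, a long noncoding RNA of the HoxC cluster, fell by 2.16 ± 0.27 in H3K4me2 with -0.19 ± 0.23 in H3K4me1. Without the mutant libraries 0 windows passed this edgeR test, 1697 had an unadjusted p under 0.05, and without the wild-type ones 251 passed.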

How the data were processed

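The members, the gene lists and the tests were chosen with earlier results of these data known. Windows are rows of a table of raw read counts that the authors deposited, 1 per Entrez gene ID; per the submitters' processing notes Subread, featureCounts, MACS2 and the builds GRCm38 and mm10 were used, with versions not given in the sources used here. Of 27095 rows, 31 equal to an earlier row and 29 with no methylation read were left out (27039 kept), and RefSeq gave a symbol for 25204 (93%). Counts were analysed in R 4.3.3 with edgeR 4.0.16 and limma 3.58.1, with DESeq2 1.42.0 as an alternative.

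Within each mark the counts of replicates 2 and 3 of a construct were summed, because these differed by about counting error, and replicate 1 was tested against the sums with the construct as block, TMM scaling, edgeR's low-count filter and a robust quasi-likelihood F-test (two-sided). Each fit had 2 residual degrees of freedom per window, and the estimated prior made the dispersion nearly common to all windows of like abundance. A single window's own spread therefore hardly enters its p-value or its SE, which was derived from the F statistic. Unadjusted p-values under 0.05 numbered 3374 in H3K4me2 and 6259 in H3K4me1. Named windows were the first 12 per direction by the smaller absolute fold change of both marks, with no overlap in CPM, at least 2 times the silent windows' median and no predicted genes, plus up to 4 members per list and direction. Genes within 10 kb of a named one stand beside it. A window that the rule names is not reported here. Chromosome shifts have no test. Alternatives were separate later libraries, leaving out a construct or replicate, no block, other scalings, no filter and DESeq2.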

Additional observations from a re-analysis of the deposited data

Results flagged for a closer look

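In H3K4me2, the Klf4 window of wild-type Snai1 replicate 3 had 1.63 CPM, away from the other 5 later libraries, which lay between 2.67 and 3.27 CPM. Its gap to the nearest library was 0.632 of the range of the 6, above Dixon's critical value for 6 samples. That test takes the 6 values as independent draws, whereas these were 2 libraries for each of 3 constructs. This was the only such case among 48 groups of 6 later libraries, and chance gives about 1 in 20 per group, so it is no excess. The value lay below the median of silent receptor windows, 2.10 CPM. The shift between replicate 1 and the later libraries differed between H3K4me2 and H3K4me1 at 7 windows, by edgeR's test of the interaction, as described for Hotair, Cytip, Cpa3, Tbxas1, Serpinb1a and Clec4d.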

How the results depend on the processing

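No paired analysis was possible because the replicate number is itself the contrast; the construct was the block instead. The count of windows passing in H3K4me2, 949, was 2940 with the later libraries taken as separate samples, 2421 with column totals, 610 with scaling to silent receptor windows, 209 with loess offsets, 512 with chromosome shifts removed and 627 with DESeq2, and ranged from 27 to 1473 when a construct or a replicate was left out. In H3K4me1, 3110 became 6388 with separate libraries, 1318 with silent-window scaling and 1611 with DESeq2, and ranged from 487 to 4565 when a construct or replicate was left out. The 431 windows shifted alike became 1450 with separate libraries, 879 with column totals, 124 with loess offsets and 274 with chromosome shifts removed, and ranged from 19 to 688 when a construct or replicate was left out. The 7 windows with a difference between marks became 1449 with separate libraries, 231 with column totals and 2 with loess offsets, and ranged from 0 (1697 at an unadjusted p under 0.05, edgeR) to 251 when a construct was left out. Removing chromosome shifts took the mitochondrial median out by construction, which left ND4L at 0.00864 in H3K4me1 (adjusted p = 0.99). The cause of the other changes was not tested. Of the values of named windows under the alternatives, 1566 stayed on their side of the threshold, 357 no longer passed and 52 newly passed. Without mutant libraries 1 of the 12 higher and 2 of the 12 lower named windows still passed in both marks, without empty-vector libraries 9 and 5, and without wild-type libraries 12 and 12. Chromosome shifts kept their sign in all 84 comparisons, with 5 to 7 pairs past 0.2, and over windows with at least 50 reads that of chromosome 17 in mutant cells was 0.18 in H3K4me2 in place of 0.30. Counts in weak windows, a few CPM, limit what can be seen there.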
